A study of Mus musculus with 12 samples.

Results

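Fatty acid synthesis and sterol efflux were followed through 7 genes: Srebf1, Acaca, Fasn, Scd1, Scd2, Abca1 and Abcg1. Their gene IDs are, in that order, ENSMUSG00000020538, ENSMUSG00000020532, ENSMUSG00000025153, ENSMUSG00000037071, ENSMUSG00000025203, ENSMUSG00000015243 and ENSMUSG00000024030. The rule that picks them lists their IDs among 56748 gene IDs and applies no measured value, but the list was drawn up with earlier results of these data known, and all 7 passed the filter on low counts. RNA abundance was measured by sequencing in mesenchymal stem cells isolated from mouse adipose tissue, grown in DMEM with fetal bovine serum and antibiotics. Cells were kept as single cells in 2D culture or as 3D aggregates called spheroids, with no other treatment named, and each culture was sampled at 0 h and 24 h with 3 libraries a group, 12 in all. The labels give no strain, sex or age of mouse, no age of the spheroids at 0 h, and nothing on whether replicates came from separate cultures. The p-values therefore measure the spread between libraries, which may be technical. The cell type could not be checked against its markers, because the tables used here pair gene IDs with no names other than those of the 7 genes.

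Fatty acids are built in the cytosol from acetyl-CoA. Acetyl-CoA carboxylase 1 (Acaca) makes malonyl-CoA, fatty acid synthase (Fasn) extends it to palmitate, and the stearoyl-CoA desaturases (Scd1, Scd2) place a double bond in the saturated product. Their transcription is driven by SREBP1, the product of Srebf1. Excess cholesterol leaves cells through the transporters ABCA1, which loads lipid-poor apolipoprotein A-I, and ABCG1, which loads high-density lipoprotein. The liver X receptors (LXR), which sense oxysterols, are known to induce Abca1, Abcg1, Srebf1, Fasn and Scd1, so synthesis and efflux share an activator.

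The sequences before the transcript starts are shown because 3 of the genes carry the same paired motif there. RefSeq start windows were found for 4 of the 7 genes, namely Fasn, Acaca, Srebf1 and Abca1, and 6 windows in all. Each run below is the 250 bases before a RefSeq start in GRCm38.p6, read 5′ to 3′ on the minus strand, on which these 3 genes lie. They are Fasn at chr11:120824548-120824797, the window of Srebf1 farthest downstream at chr11:60210472-60210721, and Abca1 at chr4:53159896-53160145. The RefSeq gene spans reach further upstream, so the Fasn and Srebf1 windows lie wholly inside them and 93 bases of the Abca1 window do. Capitals mark TGACC followed by TAACC with any 5 bases between them, a spacing of half-sites like that of LXR elements.
Fasn: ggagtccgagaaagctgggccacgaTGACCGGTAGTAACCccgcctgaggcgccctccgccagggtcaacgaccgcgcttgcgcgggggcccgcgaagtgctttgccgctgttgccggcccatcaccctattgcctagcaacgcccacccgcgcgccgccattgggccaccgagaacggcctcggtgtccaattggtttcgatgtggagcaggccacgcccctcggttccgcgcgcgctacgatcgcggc
Srebf1: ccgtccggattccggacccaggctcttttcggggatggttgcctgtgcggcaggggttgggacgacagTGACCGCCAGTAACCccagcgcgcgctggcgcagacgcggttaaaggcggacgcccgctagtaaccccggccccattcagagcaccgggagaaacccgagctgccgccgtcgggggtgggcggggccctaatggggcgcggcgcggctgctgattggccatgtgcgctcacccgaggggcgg
Abca1: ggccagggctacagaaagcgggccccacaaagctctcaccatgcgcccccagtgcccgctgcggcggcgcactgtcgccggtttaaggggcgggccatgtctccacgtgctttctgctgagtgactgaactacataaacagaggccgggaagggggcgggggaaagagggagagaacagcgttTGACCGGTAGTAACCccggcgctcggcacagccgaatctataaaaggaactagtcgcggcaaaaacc

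The capitals lie 225 to 211 bases before the start in Fasn, 182 to 168 in Srebf1 and 67 to 53 in Abca1. The match reads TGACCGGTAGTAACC in both Fasn and Abca1, and TGACCGCCAGTAACC in Srebf1. On either strand, this pair occurred in 15 of 32851 windows of the same length, or 0.0457%. The pair was picked after these sequences had been read, so the rarity is a description. Other motifs were more common. CCAAT, searched on both strands, was in 33.8% of windows and matched 3 times in Fasn, of which the match at 62 to 58 bases and the one on the other strand at 59 to 55 bases overlap. GGGCGG, on both strands, was in 32.7% of windows and matched 2 times in the Abca1 window and 2 times in the Srebf1 window shown. CACGTG, which reads the same on both strands, was in 6.02% of windows and matched once in Abca1, 147 to 142 bases before the start. TCACNCCA, the core of a sterol response element, was in 3.67% of windows on either strand and had no match in the 6 windows. A match is a description of letters, and none of the files measures binding.

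Library totals lay between 10182590 and 17109609 expected counts, estimates that divide a read among the genes it could come from. The 7 genes had from 23 expected counts in a library (Abcg1) to 13999 (Scd2). Expected counts of Acaca were not whole in 8 of 12 libraries, so some of its reads could also come from elsewhere in the genome. The values lay near whole numbers, farthest in 3D at 24 h replicate 1 (433.17) and 2D at 24 h replicate 2 (260.86). How many reads were shared is not known, and neither is their effect on its level. All other members had whole values throughout.

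Levels of different genes were compared per transcript length, in TPM (transcripts scaled to a fixed library sum, deposited as log2(TPM + 1) and taken back to the linear scale here). Scd2 had the highest mean of the 7 in each group, with 130.3 ± 27.8 TPM at 0 h and 169 ± 34.9 at 24 h in 2D cells. Spheroids had 299 ± 5.73 TPM of Scd2 at 0 h and 82.1 ± 6.84 at 24 h (SD, n = 3 here and for the other genes). In 3D at 24 h its libraries overlapped those of Srebf1, which had 70.4 ± 7.76 TPM. Fasn was second in 2D at 0 h with 67.1 ± 8.05 TPM, overlapping Srebf1 at 48.7 ± 15.4 TPM. In 3D at 0 h Fasn had 14.5 ± 3.25 TPM, below Srebf1 at 80.2 ± 14.2 and Scd1 at 60.6 ± 11.96 and apart from both. Srebf1 and Scd1 overlapped there. The lowest means in 2D at 0 h were those of Abca1, 1.02 ± 0.427 TPM, and Abcg1, 1.02 ± 0.445 TPM, whose libraries overlapped. Abca1 had 6.32 ± 1.58 TPM in 2D cells after 24 h, and spheroids had 10.1 ± 0.700 at the start and 16.1 ± 3.80 at 24 h. Abcg1 did not exceed 4.26 TPM in any library. Acaca ranged from 2.72 to 10.02 TPM.

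**Figure D1:**
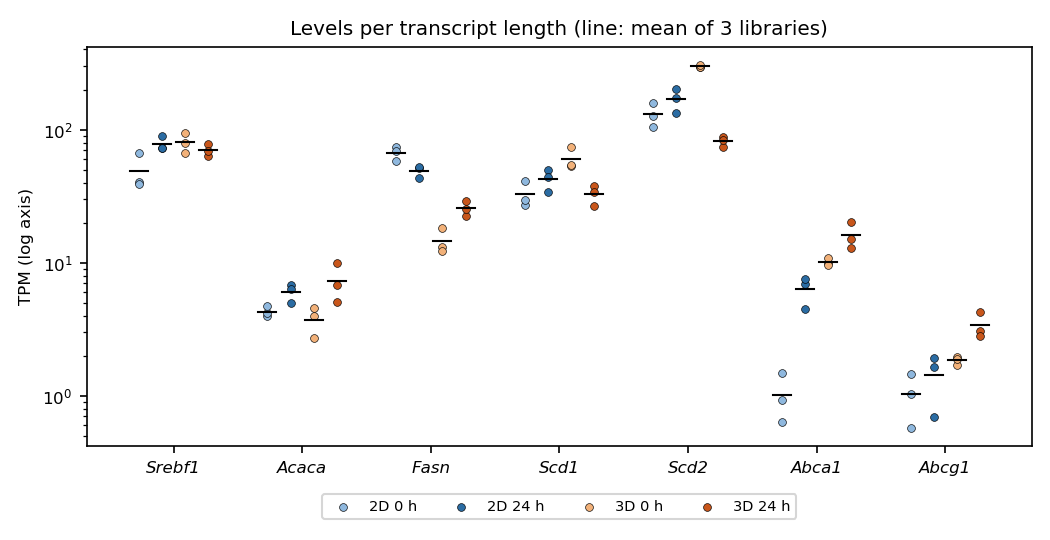
TPM of the 7 genes on a log axis, with 1 point per library, colours for the 4 groups and a line at the mean of 3 libraries. Scd2 has the highest mean in each group, and Abca1 climbs from 1.02 TPM in 2D at 0 h to 16.1 TPM in 3D at 24 h.

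Changes of a gene between groups were measured from the expected counts, given below as CPM (counts scaled to a fixed library sum) after TMM scaling. In bulk RNA, fewer cells expressing a gene and less RNA per cell cannot be told apart. Srebf1, the regulator, had 89.7, 79.8 and 98.9 CPM in 2D at 0 h, and 118, 125 and 119 CPM in 2D at 24 h. In 3D it had 125, 132 and 115 CPM at 0 h, and 94.6, 98.6 and 81.2 CPM at 24 h. The pairs 2D at 0 h with 3D at 24 h, and 2D at 24 h with 3D at 0 h, overlapped, and the second pair lay above the first. Srebf1 was thus higher at 24 h in one culture and lower at 24 h in the other.

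Acaca, which commits acetyl-CoA to fatty acid synthesis, had 19.6, 17.95 and 25.5 CPM in 2D at 0 h and 28.4, 23.5 and 20.7 CPM in 2D at 24 h. The 3D libraries had 14.2, 14.1 and 16.0 CPM at 0 h and 23.6, 21.9 and 19.96 CPM at 24 h. Its 3D libraries at 0 h lay below all others, and the remaining 3 groups overlapped. Fasn had 279, 209 and 316 CPM in 2D at 0 h and 159.9, 178 and 172 CPM in 2D at 24 h. In 3D it had 59.7, 64.6 and 55.9 CPM at 0 h and 75.2, 61.2 and 64.2 CPM at 24 h. Each spheroid library of Fasn lay below each 2D library.

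The desaturases took another shape. Scd1 had 96.0, 101 and 117 CPM in 2D at 0 h, and 107, 138 and 126 CPM in 2D at 24 h. Its 3D libraries had 137, 152 and 163 CPM at 0 h and 92.4, 71.8 and 94.0 CPM at 24 h. Scd1 was lowest in 3D at 24 h, where no library overlapped another group, while 3D at 0 h overlapped 2D at 24 h. Scd2 had 514, 403 and 582 CPM in 2D at 0 h, and 474, 635 and 551 CPM in 2D at 24 h. In 3D it had 1032, 1041 and 1041 CPM at 0 h, and 273, 258 and 278 CPM at 24 h. The 2D groups overlapped, and for Scd2 the spheroids stood above them at 0 h and below them at 24 h.

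Abca1, the transporter that starts lipoprotein formation, had 7.22, 4.74 and 10.3 CPM in 2D at 0 h and 31.1, 42.1 and 46.3 CPM in 2D at 24 h. In 3D it had 67.2, 64.7 and 71.8 CPM at 0 h and 122, 85.9 and 96.3 CPM at 24 h. No 2 of the 4 groups overlapped for Abca1. Abcg1 had 2.75, 1.68 and 2.90 CPM in 2D at 0 h and 3.54, 2.25 and 2.39 CPM in 2D at 24 h. Spheroids had 4.38, 6.17 and 5.04 CPM of Abcg1 at 0 h and 11.6, 8.97 and 10.0 CPM at 24 h. Its 2D groups overlapped, and 3D at 24 h lay above 3D at 0 h.

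**Figure D2:**
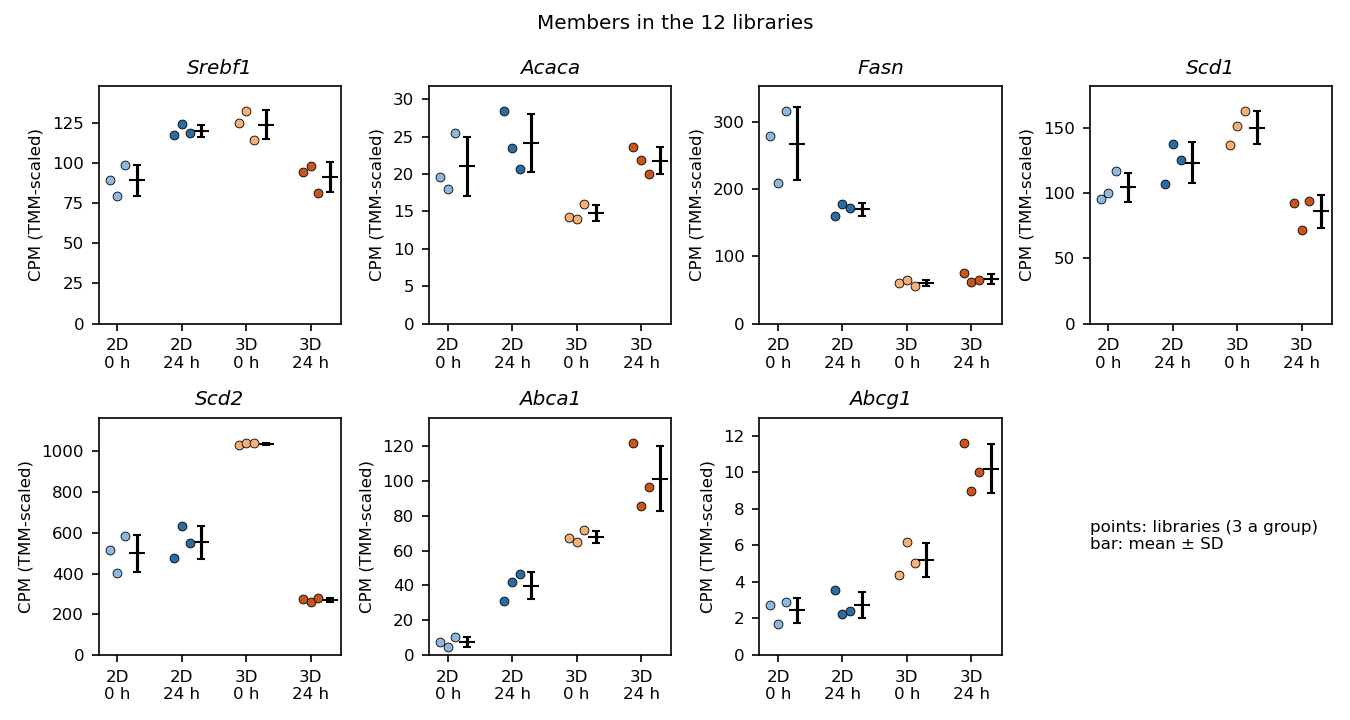
CPM after TMM scaling for each of the 7 genes, 1 panel a gene, with a point per library in the 4 groups and a bar for the mean ± SD of 3 libraries. Fasn is lower in both 3D groups, Scd2 peaks near 1038 CPM in 3D at 0 h and is lowest in 3D at 24 h, and Abca1 is separated in all 4 groups.

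At 0 h, spheroids had more RNA of both transporters, both desaturases and Srebf1 than 2D cells, and less of Fasn and Acaca. Abca1 was 9.09-fold higher and Fasn 4.46-fold lower. All 7 genes were called at an adjusted p under 0.05 (edgeR quasi-likelihood test, Benjamini-Hochberg over 14338 genes), 5 higher and 2 lower, where 45.8% of all genes tested were called, 23.1% higher and 22.7% lower. All 7 also had groups that did not overlap, 5 higher and 2 lower, as did 54.4% of genes tested, 27.9% higher and 26.6% lower. The median log2 fold change was 0.52 over the 7 genes and 0.02 over all genes, and the median absolute change was 1.06 against 0.50.

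The log2 fold change of Abca1 was 3.18 ± 0.23 (SE; adjusted p = 5.9e-09), larger in size than that of 97.9% of genes tested. Fasn had -2.16 ± 0.14 (adjusted p = 2.1e-09), larger in size than 94.4%. Among the desaturases, Scd2 had 1.06 ± 0.13 (adjusted p = 2.9e-06) and Scd1 had 0.52 ± 0.13 (adjusted p = 0.0033). By limma on log2(TPM + 1), Scd1 had 0.88 (adjusted p = 0.0075). Abcg1 stood at 1.09 ± 0.29 (adjusted p = 0.0050), a call lost with limma on log2(TPM + 1), where it had 0.52 (adjusted p = 0.090). Srebf1 had 0.47 ± 0.11 (adjusted p = 0.0023), and 0.74 by limma on log2(TPM + 1) (adjusted p = 0.016). The lower level of Acaca, -0.51 ± 0.17 (adjusted p = 0.019), depended on the scaling and on single libraries. It was not called with library totals (adjusted p = 0.055), upper-quartile scaling (adjusted p = 0.066) or limma on log2(TPM + 1) (-0.17, adjusted p = 0.56). Nor was Acaca called without 2D 0 h replicate 3 (-0.31, adjusted p = 0.15), 3D 0 h replicate 1 (adjusted p = 0.077) or 3D 0 h replicate 2 (adjusted p = 0.083).

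At 24 h, the transporters were again higher in spheroids and Fasn again lower, but the desaturases and Srebf1 now lay below the 2D cells. Abcg1 was 3.75-fold higher, Abca1 2.54-fold higher, Fasn 2.54-fold lower and Scd2 2.05-fold lower. Of the 7 genes, 2 were called higher, 4 lower and 1 was not called, where 42.5% of genes tested were called, 19.6% higher and 22.8% lower. The groups of the same 6 genes did not overlap, against 52.9% of genes tested, 25.7% higher and 27.2% lower. The median log2 fold change was -0.40 over the 7 genes and 0.00 over all genes. The median absolute change was 1.04 against 0.46.

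Abcg1 had a log2 fold change of 1.91 ± 0.28 (SE; adjusted p = 3.1e-05), larger in size than that of 92.5% of genes tested. By limma, the Abcg1 value was 0.88 on the log2(TPM + 1) scale (adjusted p = 0.010) and 1.28 on the log2(TPM + 0.1) scale (adjusted p = 0.024). A pseudocount understates changes of low genes. For Abcg1, CPM per TPM relative to the library's median gene changed by 0.61 ± 0.47 (log2, SE), with the groups overlapping. This quantity restates the gap between counts and TPM, and the cause of the smaller limma values was not tested. Abca1 had 1.35 ± 0.20 (adjusted p = 3.2e-05) and Fasn -1.34 ± 0.14 (adjusted p = 4.3e-07). By limma on log2(TPM + 1) the values were 1.22 for Abca1 (adjusted p = 0.0010) and -0.91 for Fasn (adjusted p = 0.0016). Scd2 had -1.04 ± 0.13 (adjusted p = 3.5e-06). Scd1 had -0.52 ± 0.13 (adjusted p = 0.0038), and limma on log2(TPM + 1) did not call it (-0.36, adjusted p = 0.21). Srebf1 had -0.40 ± 0.11 (adjusted p = 0.0084), a call lost with limma on log2(TPM + 1) (-0.15, adjusted p = 0.60). It was also lost without 2D 24 h replicate 2 (adjusted p = 0.067) or 3D 24 h replicate 3 (-0.29, adjusted p = 0.085). Acaca had -0.15 with a 95% interval from -0.49 to 0.20 (adjusted p = 0.51), and turned to 0.20 with limma on log2(TPM + 1) (adjusted p = 0.50).

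**Figure D3:**
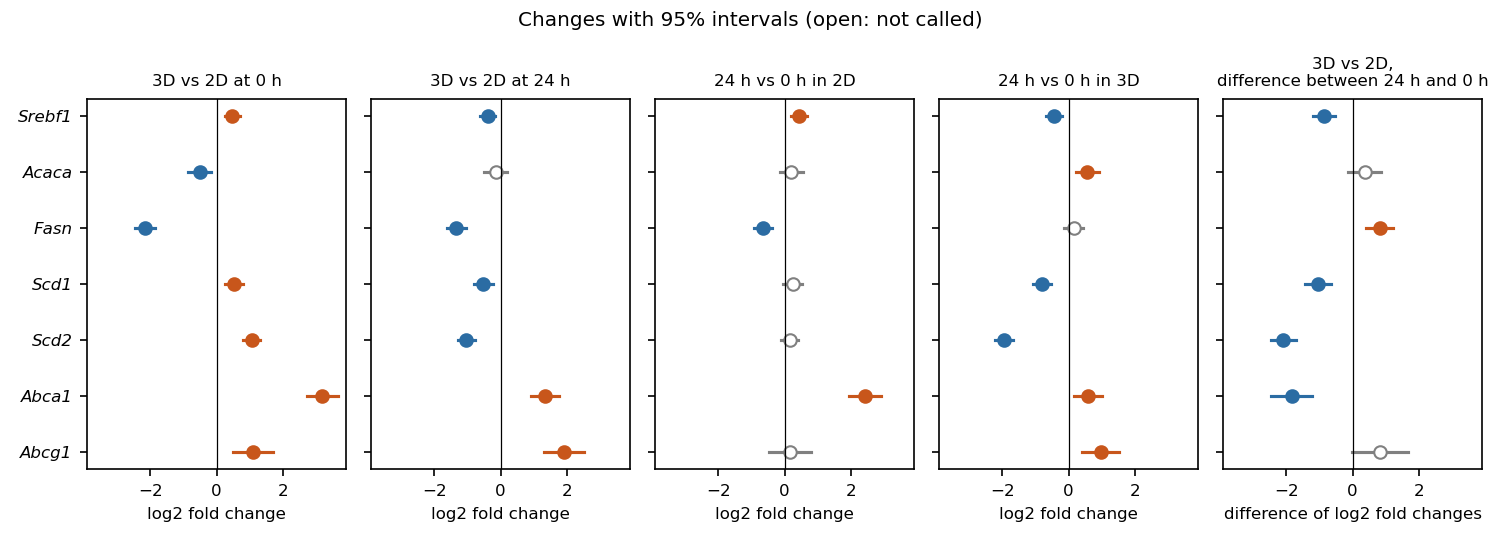
Log2 fold changes of the 7 genes in 4 comparisons, and the difference between the 24 h and 0 h culture comparisons, with 95% intervals; orange is called higher, blue called lower and open grey not called. Srebf1, Scd1 and Scd2 lie right of 0 at 0 h and left of 0 at 24 h, while Abca1 and Abcg1 stay right and Fasn left.

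Over 24 h in 2D cells, Abca1 rose 5.34-fold, Srebf1 rose 1.35-fold and Fasn fell 1.58-fold. These 3 of the 7 genes were called, 2 higher and 1 lower, which is close to the 34.4% of genes tested that were called, 17.4% higher and 17% lower. Groups of 3 genes did not overlap, 2 higher and 1 lower, against 43.1% of genes tested, 21.7% higher and 21.4% lower. For the 7 genes the median log2 fold change was 0.20, against 0.02 over all genes. Their median absolute change was 0.24, below the 0.41 of all genes. Abca1 had a log2 fold change of 2.42 ± 0.22 (SE; adjusted p = 7.8e-07), larger in size than that of 98.3% of genes tested. Fasn had -0.66 ± 0.13 (adjusted p = 0.0014), not called with limma on log2(TPM + 1) (-0.45, adjusted p = 0.070), and Srebf1 0.43 ± 0.11 (adjusted p = 0.0074). By limma on log2(TPM + 1) the Srebf1 value was 0.71 (adjusted p = 0.028), and without a filter it was not called at the same size (adjusted p = 0.051). Abcg1 did not pass the test, at 0.15 with a 95% interval from -0.48 to 0.79 (adjusted p = 0.72). The other three were not called either, with Scd1 at 0.24 (95% interval -0.04 to 0.52), Acaca at 0.20 (-0.15 to 0.54) and Scd2 at 0.15 (-0.11 to 0.41).

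Over 24 h in spheroids, both desaturases and Srebf1 fell, and both transporters and Acaca rose. Scd2 fell 3.85-fold and Abcg1 rose 1.96-fold. Called genes numbered 3 higher and 3 lower of 7, where 48.5% of genes tested were called, 23.8% higher and 24.7% lower. Groups of 6 genes did not overlap, 3 in each direction, against 60.3% of genes tested, 29.8% higher and 30.5% lower. For the 7 genes the median log2 fold change was 0.15, against -0.004 over all genes. Their median absolute change of 0.58 was close to the 0.53 of all genes. Scd2 had a log2 fold change of -1.94 ± 0.13 (SE; adjusted p = 2.4e-09), larger in size than that of 92.4% of genes tested, and Scd1 had -0.81 ± 0.13 (adjusted p = 8.1e-05). Srebf1 had -0.44 ± 0.11 (adjusted p = 0.0037), not called with limma on log2(TPM + 1) (-0.18, adjusted p = 0.52). Acaca had 0.56 ± 0.17 (adjusted p = 0.010), and 0.92 by limma on log2(TPM + 0.1) (adjusted p = 0.017).

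Among the transporters in spheroids, Abcg1 had 0.97 ± 0.27 over 24 h (adjusted p = 0.0064), a call that held with limma on log2(TPM + 1) (0.61, adjusted p = 0.048). With limma, that call was lost without a filter (adjusted p = 0.085) and with a pseudocount of 0.1 (adjusted p = 0.11). Abca1 had 0.58 ± 0.19 (adjusted p = 0.021). The Abca1 call was lost without 3D 24 h replicate 1 (0.45, adjusted p = 0.095), 3D 0 h replicate 1 (adjusted p = 0.051) or 3D 0 h replicate 2 (adjusted p = 0.060). It was also lost with limma on log2(TPM + 0.1) (adjusted p = 0.11), and on log2(TPM + 1) without a filter (adjusted p = 0.075). Fasn had 0.15 with a 95% interval from -0.13 to 0.44 by counts (adjusted p = 0.37). By TPM, Fasn was called higher, at 0.79 (limma on log2(TPM + 1), adjusted p = 0.0032).

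TPM divides counts by an effective length, which in RSEM depends on the isoforms a gene's reads are assigned to. This length was looked at after the difference for Fasn had been seen. It was computed here from the counts and TPM themselves, so it restates their difference and is no separate measure of length. Taken as CPM per TPM relative to the median gene of the library, it was 2.29, 3.47 and 3.29 for Fasn in 3D at 0 h, and 1.98, 1.96 and 1.87 in 3D at 24 h. The groups did not overlap, with a log2 change of -0.62 ± 0.19 (SE). Nor did those of 3D and 2D cells at 24 h, with a log2 change of -0.38 ± 0.14. In 2D it ran from 2.31 to 3.09 at 0 h and from 2.11 to 2.95 at 24 h. Scd2 and Abca1 varied little, from 2.34 to 2.52 and from 4.52 to 4.86 over the 12 libraries. Abcg1 ranged from 0.863 to 2.62, Acaca from 1.56 to 3.66, Srebf1 from 0.856 to 1.39 and Scd1 from 1.43 to 2.22. For these genes, counts and TPM thus differ by an amount that varies between libraries. Groups were also apart for Scd1 between 3D and 2D at 24 h (log2 change -0.12 ± 0.03). The same held over 24 h in 2D for Scd2 (-0.06 ± 0.02) and Abca1 (-0.06 ± 0.02). Which isoforms were present was not tested, since the deposited tables hold 1 value per gene.

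**Figure D4:**
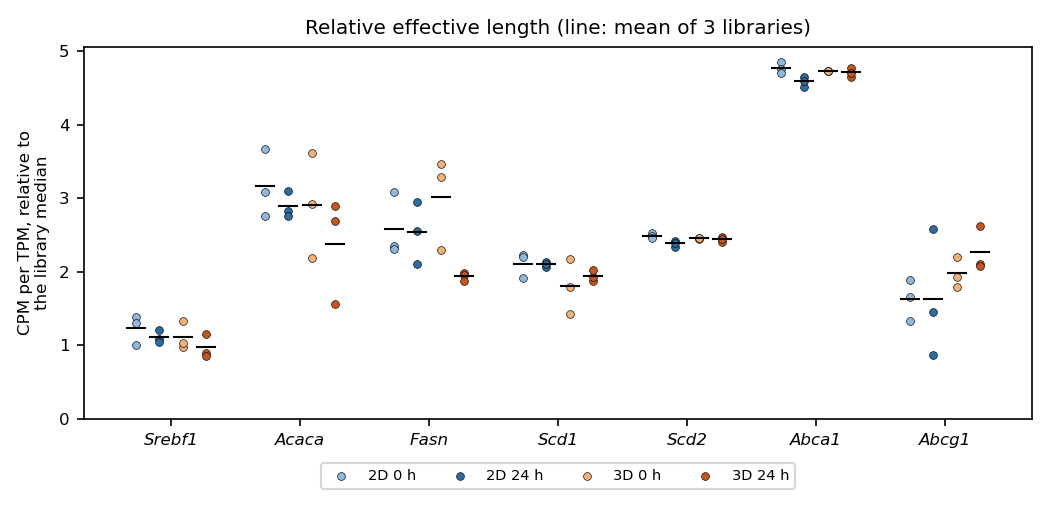
Relative effective length (CPM per TPM, divided by the library's median gene) of the 7 genes, 1 point per library, with a line at the group mean. Abca1 and Scd2 are tight, and Fasn runs from 2.29 to 3.47 in 3D at 0 h against 1.87 to 1.98 in 3D at 24 h.

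The difference between cultures changed with time for 5 of the 7 genes, 4 with a value at 24 h below that at 0 h and 1 with a value above it. Of genes tested, 39.1% were called, 20.5% lower and 18.7% higher. The change was largest for Scd2, at -2.09 ± 0.18 (SE; adjusted p = 8.5e-08), and Scd1 had -1.05 ± 0.19 (adjusted p = 0.00024). Both desaturases, like Srebf1 at -0.87 ± 0.16 (adjusted p = 0.00032, and 0.068 with limma on log2(TPM + 1) without a filter), went from higher in spheroids at 0 h to lower at 24 h. The lower values of Scd1 and Srebf1 at 24 h were not called with limma on log2(TPM + 1). For Abca1 the value was -1.84 ± 0.29 (adjusted p = 9.4e-05), and the gap to the 2D cells narrowed while staying upward. Fasn had 0.81 ± 0.19 (adjusted p = 0.0027), a narrower gap that stayed downward. The size of this value depended on the unit, with 1.24 for Fasn by limma on log2(TPM + 1) (adjusted p = 0.0024). Abcg1, at 0.81 with a 95% interval from -0.03 to 1.66 (adjusted p = 0.12), and Acaca, at 0.36 with an interval from -0.13 to 0.86 (adjusted p = 0.24), were not called. Without 2D 0 h replicate 2, Abcg1 was called (1.03, adjusted p = 0.045).

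The comparisons share libraries, since each group enters 2 of the 4 comparisons of groups, so their values for a gene are not independent. Ratios within a library do not depend on library scaling and were used to set members against each other, in 5 pairs over 4 comparisons, with the pairs picked after the levels had been seen. The TPM ratio of Abca1 to Fasn was 0.0150 ± 0.00567 at 0 h and 0.132 ± 0.0426 at 24 h in 2D cells, and 0.724 ± 0.174 and 0.621 ± 0.0610 in spheroids (SD, n = 3). By counts, its log2 difference between 3D and 2D was 5.40 ± 0.19 at 0 h and 2.70 ± 0.15 at 24 h (SE). Both comparisons had groups apart, with p = 0.1 in an exact two-sided permutation test, the smallest that 3 libraries against 3 allow. After Benjamini-Hochberg adjustment over 20 tests it was 0.118. Groups were apart, with this smallest p, in 17 of the 20 tests, so separation was common among these pairs. Scd2 to Fasn and Fasn to Acaca were apart in all 4 comparisons. In spheroids over 24 h the direction of the Abca1 to Fasn ratio depended on the unit, with 0.41 by counts and -0.20 by TPM.

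Between the desaturases, the TPM ratio of Scd2 to Scd1 was 4.03 ± 0.613 at 0 h and 3.95 ± 0.107 at 24 h in 2D cells, and 5.05 ± 0.914 and 2.52 ± 0.247 in spheroids (SD, n = 3). By counts, it fell by 1.13 ± 0.12 on the log2 scale over 24 h in 3D (SE; exact permutation p = 0.1, adjusted 0.118), with the groups apart. The 2D groups overlapped, with a log2 difference of -0.08 ± 0.13 (exact permutation p = 0.6). Between the transporters, the count ratio of Abca1 to Abcg1 was higher by 2.30 ± 0.39 (log2) at 24 h than at 0 h in 2D (exact permutation p = 0.1, adjusted 0.118). For 3D against 2D at 24 h the same ratio overlapped, at -0.57 ± 0.37 (exact permutation p = 0.4).

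**Figure D5:**
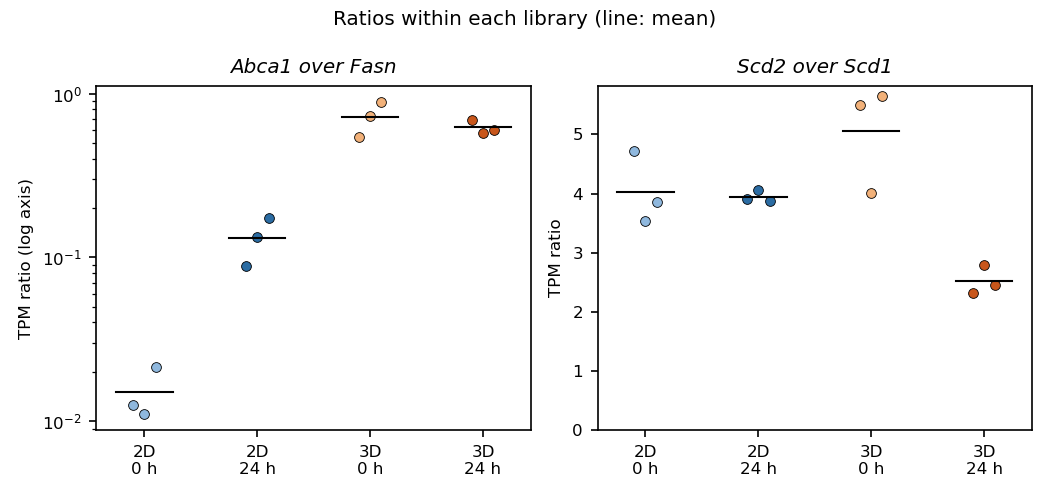
TPM ratios within each of the 12 libraries, Abca1 over Fasn on a log axis and Scd2 over Scd1 on a linear axis from 0, with a line at the group mean. Abca1 over Fasn goes from 0.0150 in 2D at 0 h to 0.724 in 3D at 0 h, and Scd2 over Scd1 is lowest in 3D at 24 h, at 2.52.

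For the 3 genes with the paired motif shown at the outset, the directions differed in some comparisons and not in others. At 0 h spheroids had Abca1 at 3.18 and Srebf1 at 0.47 above 2D cells, and Fasn at -2.16 (log2 fold changes). At 24 h the values were 1.35 for Abca1, -0.40 for Srebf1 and -1.34 for Fasn. Over 24 h in 2D they were 2.42, 0.43 and -0.66. Over 24 h in spheroids they were 0.58, -0.44 and 0.15, where Fasn was not called and had the sign of Abca1. These are values by counts. By limma on log2(TPM + 1) all signs were the same, but some calls changed. Fasn was called higher over 24 h in spheroids (0.79, adjusted p = 0.0032) and not called in 2D (-0.45, adjusted p = 0.070). Srebf1 was called neither between cultures at 24 h (-0.15, adjusted p = 0.60) nor over 24 h in spheroids (-0.18, adjusted p = 0.52). The pair lies in 1 of the 3 Srebf1 windows, while the RNA is measured as 1 value per gene, so which start gave the Srebf1 reads is not known.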

How the data were processed

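A low-input SMART-seq kit was used on total RNA, followed by a stranded mRNA library kit, per the labels' protocols. FastQC 0.11.9, STAR, RSEM and GRCm39 are named in the submitters' processing notes, while the annotation, settings and other versions were not given in the sources used. Per gene, the authors deposited expected counts and log2(TPM + 1) values, with TPM scaled for length and library size. Column names give days 0 and 1, read as 0 h and 24 h. No replicate pair agreed within sampling noise (chi-square per degree of freedom at least 4.69).

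Expected counts were rounded and fitted in R 4.3.3 with edgeR 4.0.16 (filter with minimum count 10, TMM, 1 term per group over all 12 libraries, 8 residual degrees of freedom). Standard errors came from the log2 fold change and its F statistic. A gene was called at an adjusted p under 0.05 over 14338 genes. Alternatives used limma 3.58.1, DESeq2 1.42.0, other scalings and filters, and omission of each library.

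The members, lists and named-gene rule were chosen with earlier results of these data known. Members are always named. Their symbols came with the gene IDs. The RefSeq gene table's column for Ensembl IDs is empty, so none of the 56748 IDs could be looked up and the 13 symbol lists (pathway and cell type markers) were not tested. Of the genes most like each member, only 4 IDs are given.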

Additional observations from a re-analysis of the deposited data

Results flagged for a closer look

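For 5 genes, the edgeR test of the difference between times found that the effect of culture form was not the same at 0 h and 24 h. The difference of log2 fold changes was -2.09 for Scd2, -1.05 for Scd1, -0.87 for Srebf1, -1.84 for Abca1 and 0.81 for Fasn. For Scd2, Scd1 and Srebf1 the 2 culture comparisons were called in opposite directions. Both calls of Scd2 held in all settings. With limma on log2(TPM + 1), the 24 h calls of Scd1 (-0.36, adjusted p = 0.21) and Srebf1 (-0.15, adjusted p = 0.60) were lost. By edgeR, that of Srebf1 was also lost without 2D 24 h replicate 2 (adjusted p = 0.067) or 3D 24 h replicate 3 (adjusted p = 0.085). For Abca1 and Fasn the 2 culture comparisons were called in the same direction, and the change at 24 h was smaller.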

How the results depend on the processing

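The 35 member values (7 genes in 5 comparisons) were recomputed under up to 10 other settings and without each of 12 libraries. Of 763 such values, 719 kept their direction and side of the threshold, 34 lost the call, 4 gained it and 6 changed sign, in 14 of the 35. The cause was not tested. Sign changes were limited to values not called. Acaca at 24 h went from -0.15 to 0.20 with limma on log2(TPM + 1), with or without a filter, and 0.22 with log2(TPM + 0.1), and ran from -0.25 to 0.03 without 1 library (0.0324 without 2D 24 h replicate 1). Abcg1 over 24 h in 2D ran from -0.07 to 0.33 without 1 library (0.15 with all). Members called over 24 h in 2D numbered 3, and 1 with limma on log2(TPM + 1) without a filter. Gene calls split into 3309 higher and 3255 lower at 0 h, 4025 and 2610 with upper-quartile scaling, and 3307 and 2056 with limma on log2(TPM + 1). At 24 h they split into 2815 and 3276, and 3648 and 2708 with library totals. The all-gene median became 0.12 with library totals in both culture comparisons, 0.14 with upper-quartile scaling at 0 h, and 0.12 (0 h) and 0.17 (2D over time) with limma on log2(TPM + 1). Over 24 h in 2D the split was 2489 and 2441, and 2629 and 1056 with limma on log2(TPM + 1). The fit on the groups compared alone could not differ for the difference between times, which uses all libraries. Replicate numbers shared by the groups gave no sign of pairing libraries. Deviations of same-numbered libraries correlated at -0.234 to 0.0518 and of others at -0.0902 to 0.187, and 5 of 24 best matches had the same number. With 3 libraries a group, a weak pairing could not be seen in this way. With the replicate block, 6127 genes were called at 0 h against 6564 and 5681 at 24 h against 6091, and all member calls were as without it. Abcg1, with 23 to 213 expected counts, had the widest intervals.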

Other observations

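Genes with the profile most like a member were sought among 9161 genes whose mean over libraries reached 10 CPM, by Pearson's r of log2 CPM over the 12 libraries. The libraries fall into 4 groups, so r mostly follows the group means, and it is given as a description. Closest to Fasn were ENSMUSG00000029581 (r = 0.991) and ENSMUSG00000007659 (r = 0.986). The first had means of 1182 and 945 CPM in 2D at 0 h and 24 h, and 337 and 373 CPM in 3D. Closest to Abca1 were ENSMUSG00000045973 (r = 0.979) and ENSMUSG00000055538 (r = 0.977). The second of these had means of 49.99 and 125 CPM in 2D at 0 h and 24 h, and 148 and 154 CPM in 3D.

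The paired motif was found in windows of 12 of 27025 genes, Fasn, Srebf1 and Abca1 among them. The others were Acsl3, Prrg4, Tmco4, Tmem150c, Haao, 1700010B08Rik, 4930401C15Rik, Gm52617 and LOC115486416. Acsl3 encodes an enzyme that activates long-chain fatty acids. Whether the motif is more frequent in lipid genes was not tested. The RNA of these other genes could not be looked up, because the tables used here give no gene ID for their names.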
